A study of Homo sapiens with 6 samples.

Results

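The genes described here are 9 whose array probes changed in opposite directions when U2OS cells received a miR-542-3p mimic: ATP2B4, CUL4B, DNAJB12, N4BP2L2, OGFOD3, SPTLC1, TNPO1, TRAK1 and UBE2G1. They were chosen by the mimic against control comparison itself, as the genes with at least 1 probe called higher and at least 1 called lower. Such genes numbered 9 of the 2678 genes with 2 or more detected probes, or 0.336%, among 20046 genes that the array annotation lists. That comparison therefore chose the genes, and their values below are a description with no test. U2OS is an established osteosarcoma cell line. Cells received either a negative control mimic (3 arrays) or the miR-542-3p mimic (3 arrays), and total RNA was taken 48 h later. All cells were thus transfected, and no untransfected cells are among the arrays. The labels number the arrays within a group without saying whether they are separate cultures, so the spread between arrays may be technical.

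A microRNA guides Argonaute proteins to messenger RNAs that pair with its seed, which lowers their stability and translation. One gene can make several transcripts that differ in their first exon, their spliced exons or their end, and these can differ in the sites they offer to a microRNA. A bead array probe reads only the short stretch of RNA it is complementary to, so probes of 1 gene can read different transcripts. The array annotation gives each probe 1 transcript accession, which is the only record of the probe's target used here. Where on that transcript each probe lies was not analysed here.

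Between 17848 and 18652 of 47323 probes were detected per array. Over the 18113 probes tested, Pearson's r lay between 0.982 and 0.990 for arrays within a group and between 0.953 and 0.966 across groups. Of 8 osteoblast lineage markers, 5 were detected on all 6 arrays (RUNX2, ALPL, SPP1, COL1A1 and SPARC). BGLAP was detected on 3 arrays, while SP7 and COL1A2 were each detected on 1 array. Of the markers of other cell types with a probe, only EPCAM among 5 epithelial, none among 4 leukocyte and none among 5 endothelial genes were detected on all 6 arrays. Among the epithelial genes, CDH1 and KRT5 were detected on no array, KRT19 on 1 and KRT14 on 3. Among the endothelial genes, by the best probe of each, VWF and TEK were detected on 3 arrays, PECAM1 on 1, and CDH5 and KDR on none. Leukocyte genes were detected on at most 2 arrays (CD14). In RNA from whole cultures, fewer cells with a transcript and less of it per cell cannot be told apart.

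The 9 genes have 35 probes, of which 31 passed the detection filter. Of these 31 probes, 11 were called higher with the mimic and 10 lower, and 10 were not called (limma adjusted p under 0.05 over all 18113 probes). Over all tested probes, 11.3% were called higher and 12.3% lower, and since the calls chose the genes, nothing is read from the difference. The other 4 probes, of DNAJB12 (1), N4BP2L2 (2) and TNPO1 (1), were detected on no array and carry no change. For all 21 called probes the control and mimic arrays did not overlap after normalization. For 20 of the 21 they did not overlap in the deposited intensities either, the exception being the CUL4B probe called higher. The share over all called probes is not given here, and the calls chose these probes, so nothing is read from these counts. By the accessions of their probes, the genes can be sorted into 2 kinds. In 6 of them (UBE2G1, CUL4B, TNPO1, TRAK1, ATP2B4 and OGFOD3) probes with the same transcript accession were called in opposite directions. In the other 3 (N4BP2L2, SPTLC1 and DNAJB12) the direction followed the accession. This sorting depends on how many probes each accession has. UBE2G1, CUL4B and TNPO1 had detected probes of only 1 accession, so they could only be of the first kind. In N4BP2L2 and DNAJB12 the accession that was lower had only 1 detected probe.

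**Figure D1:**
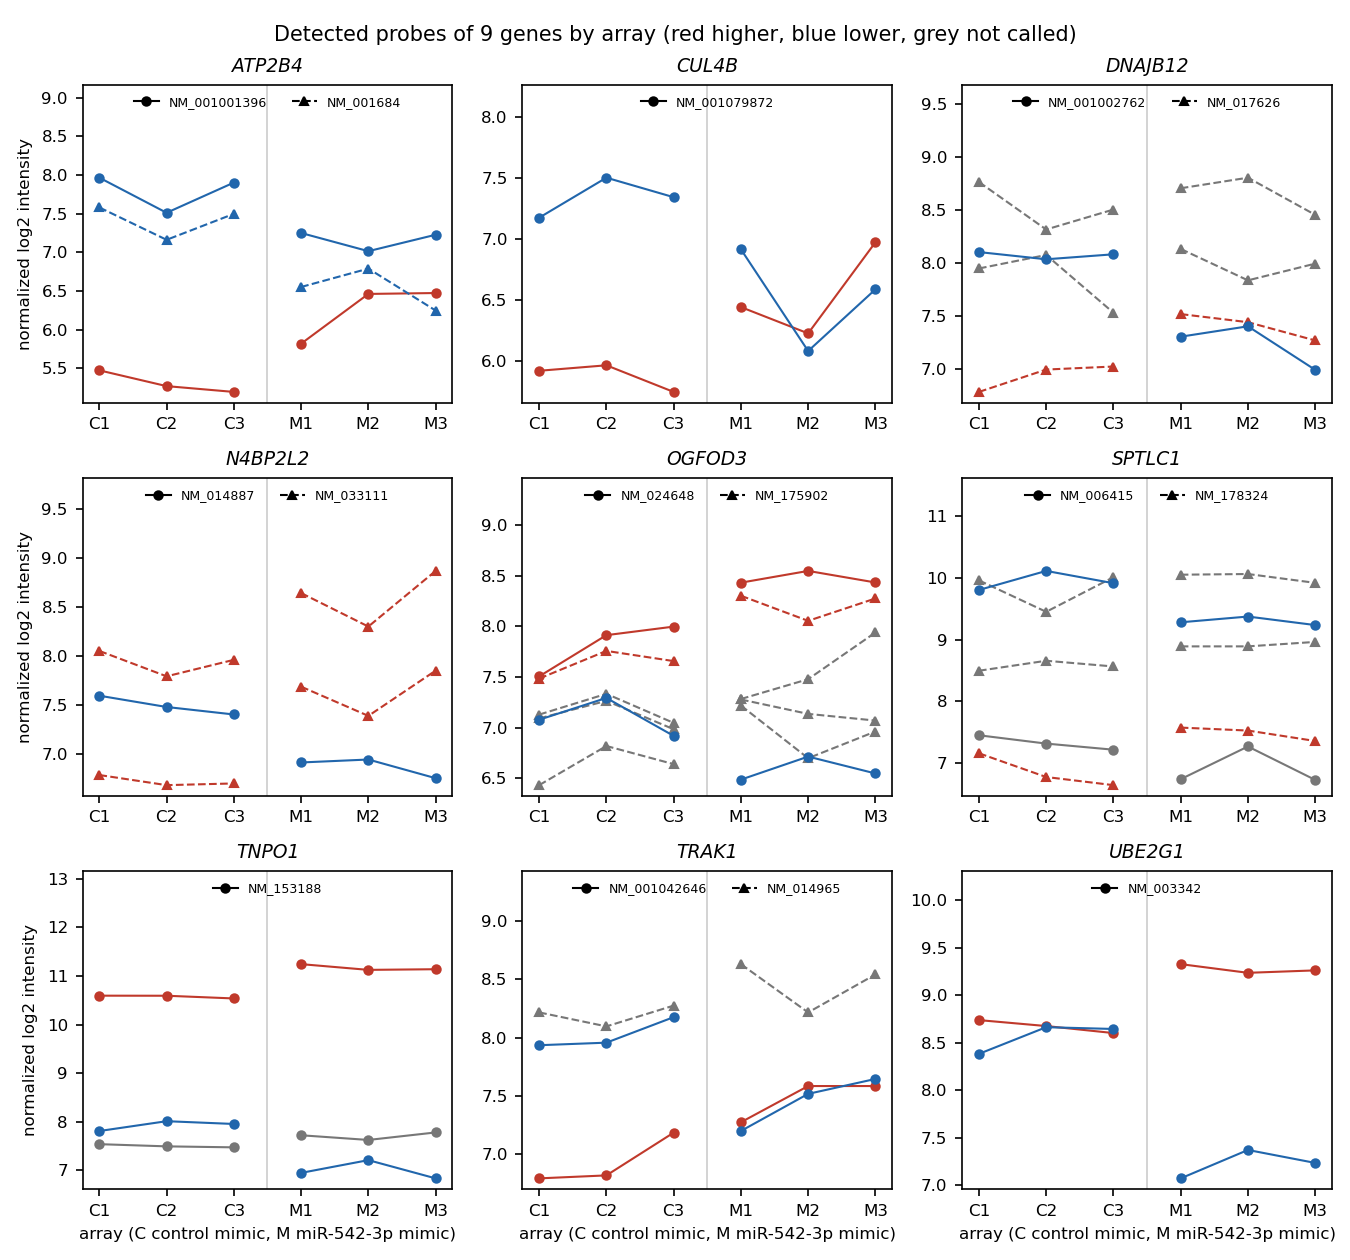
Normalized log2 intensity of the 31 detected probes (y axis) on 3 control arrays (C1 to C3) and 3 miR-542-3p mimic arrays (M1 to M3), with 1 panel per gene, y axes that differ between panels, lines joining the arrays of a group for 1 probe, and line style and marker giving the annotated transcript. Red probes were called higher, blue lower and grey not called, and in every panel at least 1 red and 1 blue probe step apart between the groups.

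UBE2G1 encodes a ubiquitin-conjugating enzyme that lengthens ubiquitin chains on substrates of cullin ligases. Its first probe (ILMN_1814465) read 8.74, 8.67 and 8.60 on the control arrays and 9.33, 9.23 and 9.26 on the mimic arrays, on the log2 scale. Its second probe (ILMN_1719039) read 8.38, 8.66 and 8.64 on the control arrays and 7.07, 7.37 and 7.23 on the mimic arrays. All 3 mimic arrays lay above all control arrays for the first probe and below them for the second. The log2 differences were 0.60 ± 0.12 (limma SE, n = 3 per group) and -1.34 ± 0.14, so that the second probe was 2.53-fold lower while the first was 1.52-fold higher. In the deposited intensities, before any background step, the first probe went from between 505.9 and 553.9 to between 691.6 and 775.9. The second went from between 456.5 and 542.0 to between 256.6 and 262.7. Both probes carry the accession NM_003342, and the RefSeq gene table lists that as the only curated coding transcript of UBE2G1.

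CUL4B is the scaffold of cullin-RING ligases that bind their substrates through DDB1. Both of its probes carry NM_001079872. One (ILMN_1691535) read 5.92, 5.97 and 5.75 on the control arrays and 6.45, 6.23 and 6.98 on the mimic arrays. The other (ILMN_2385161) read 7.18, 7.51 and 7.35 on the control arrays and 6.92, 6.09 and 6.59 on the mimic arrays. The differences were 0.67 ± 0.20 and -0.81 ± 0.21 (SE), and the mimic arrays varied more than the control arrays for both, with SDs of 0.38 and 0.42 against 0.12 and 0.16. Mimic replicate 3 was highest for the first probe and mimic replicate 2 lowest for the second. In the deposited intensities the groups of the first probe overlapped, with mimic replicate 2 at 176.1 and control replicate 1 at 176.6. The call of CUL4B in both directions thus rests on a probe whose groups lay apart only after processing.

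TNPO1, transportin-1, is a nuclear import receptor for RNA-binding proteins. The probe ILMN_1786347 read 10.59, 10.59 and 10.54 on the control arrays and 11.24, 11.12 and 11.14 on the mimic arrays. The probe ILMN_1837935 read 7.81, 8.01 and 7.95 on the control arrays and 6.95, 7.21 and 6.83 on the mimic arrays. These are differences of 0.59 ± 0.12 and -0.93 ± 0.14 (SE), with groups that did not overlap in either probe. Another detected probe gave 0.21 ± 0.12 and was not called, although its mimic arrays (7.62 to 7.78) all lay above its control arrays (7.47 to 7.54). All 3 carry NM_153188. The only probe annotated to NM_002270 was detected on no array, so the annotated transcripts of TNPO1 could not be set against each other.

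TRAK1 is an adaptor that links mitochondria to kinesin and dynein motors. Of the 2 probes with NM_001042646, ILMN_2399174 read 6.80, 6.82 and 7.19 on the control arrays and 7.28, 7.59 and 7.59 on the mimic arrays. The other, ILMN_2289924, read 7.93, 7.96 and 8.17 on the control arrays and 7.20, 7.52 and 7.65 on the mimic arrays. The groups lay apart for both. The differences were 0.55 ± 0.16 and -0.57 ± 0.16 (SE). The single probe with NM_014965 gave 0.27 ± 0.15 and its groups overlapped.

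ATP2B4 encodes a plasma membrane calcium pump that exports calcium from the cell. Its probe ILMN_1664772 (NM_001001396) read 5.47, 5.27 and 5.20 on the control arrays, where it was detected on 1 of 3, and 5.82, 6.46 and 6.47 on the mimic arrays, where it was detected on all. A second probe with the same accession, ILMN_1680579, read 7.96, 7.51 and 7.90 on the control arrays and 7.25, 7.02 and 7.23 on the mimic arrays. The probe with NM_001684 read 7.58, 7.16 and 7.50 on the control arrays and 6.55, 6.79 and 6.25 on the mimic arrays. The differences were 0.94 ± 0.20, -0.63 ± 0.16 and -0.88 ± 0.18 (SE). Thus 2 probes detected on all 6 arrays were lower under both accessions, and the one that was higher was dim in the control cells and passed the filter through the mimic arrays. When detection on all 6 arrays was required, that probe dropped out and ATP2B4 was no longer called both ways.

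OGFOD3 encodes a protein with an iron and 2-oxoglutarate dependent oxygenase domain. All 6 of its probes were detected, and 5 of the 6 had a difference above 0. With NM_024648, ILMN_2388539 read 7.51, 7.91 and 7.998 on the control arrays and 8.43, 8.55 and 8.43 on the mimic arrays, a difference of 0.67 ± 0.16 (SE). With the same accession, ILMN_1665289 read 7.08, 7.29 and 6.92 on the control arrays and 6.49, 6.71 and 6.55 on the mimic arrays, a difference of -0.51 ± 0.14. The 4 probes with NM_175902 ranged from 0.05 to 0.58, and the highest of them (ILMN_3195203, 0.58 ± 0.14) was called. ILMN_1665289 was thus the only OGFOD3 probe that was lower.

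**Figure D2:**
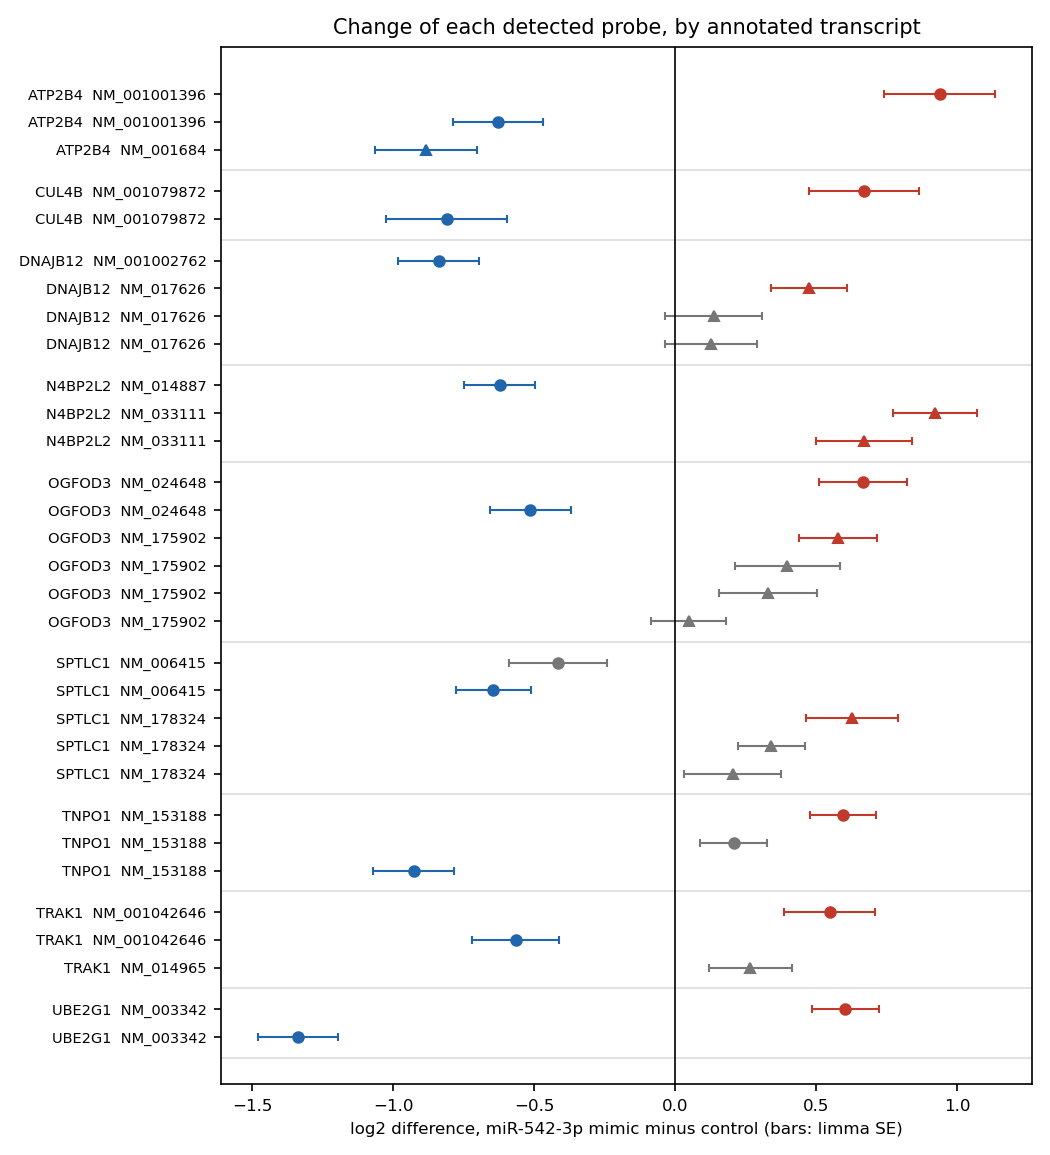
Log2 difference, miR-542-3p mimic minus control (x axis), of the 31 detected probes, with bars of 1 limma SE, grouped by gene and annotated transcript (y axis); red called higher, blue called lower, grey not called, and within a gene circles and triangles mark different transcripts. In N4BP2L2, SPTLC1 and DNAJB12 all probes of a transcript lie on 1 side of 0, while in the other 6 genes a red and a blue point share a transcript.

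In N4BP2L2, named for its likeness to the NEDD4-binding protein N4BP2, the annotated transcripts split the probes. With NM_033111, ILMN_3234089 read 6.79, 6.68 and 6.70 on the control arrays and 7.69, 7.39 and 7.85 on the mimic arrays, and ILMN_1737561 read 8.05, 7.79 and 7.96 and then 8.65, 8.30 and 8.87. With NM_014887, ILMN_1797893 read 7.60, 7.48 and 7.40 on the control arrays and 6.91, 6.94 and 6.75 on the mimic arrays. Both NM_033111 probes were higher on every mimic array, by 0.92 ± 0.15 and 0.67 ± 0.17 (SE), and mimic replicate 2 was the lowest mimic array for both. The NM_014887 probe was lower on every mimic array, by a log2 difference of -0.62 ± 0.13. A further probe of each accession was detected on no array. The RefSeq gene table lists 39 curated coding transcripts for N4BP2L2, the most of the 9 genes.

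SPTLC1 is a subunit of serine palmitoyltransferase, which makes the first intermediate of sphingolipids. All 3 probes with NM_178324 had differences above 0, and both with NM_006415 had differences below 0. Among the former, ILMN_1665094 read 7.16, 6.78 and 6.65 on the control arrays and 7.58, 7.53 and 7.36 on the mimic arrays, a difference of 0.63 ± 0.16 (SE). The other NM_178324 probes gave 0.34 ± 0.12 and 0.20 ± 0.17 and were not called, although the groups did not overlap for the first of them. Among the latter, ILMN_1813491 read 9.80, 10.11 and 9.91 on the control arrays and 9.28, 9.37 and 9.23 on the mimic arrays, a difference of -0.65 ± 0.13. The second NM_006415 probe gave -0.41 ± 0.17 with overlapping groups and was not called. Direction followed the accession in all 5 probes, but 1 probe per accession carried the call.

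DNAJB12 is a J-domain protein of the endoplasmic reticulum membrane that works with Hsp70 in the removal of misfolded membrane proteins. Its only NM_001002762 probe, ILMN_1712929, read 8.10, 8.04 and 8.08 on the control arrays and 7.31, 7.40 and 6.99 on the mimic arrays, a difference of -0.84 ± 0.14 (SE). With NM_017626, ILMN_1781098 read 6.79, 6.996 and 7.02 on the control arrays and 7.52, 7.44 and 7.27 on the mimic arrays, a difference of 0.48 ± 0.13. The groups lay apart for both. Another 2 detected NM_017626 probes gave 0.14 ± 0.17 and 0.13 ± 0.16, with overlapping groups.

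Summarising a gene by 1 number hid these differences. By its brightest detected probe, a gene of the 9 was called higher in 4 cases (N4BP2L2, OGFOD3, TNPO1 and UBE2G1), lower in 2 (ATP2B4 and CUL4B) and not called in 3 (DNAJB12, SPTLC1 and TRAK1). By the mean of its detected probes, UBE2G1 gave a difference of -0.37, opposite to the 0.60 of its brightest probe. TNPO1 gave -0.04 by the mean against 0.59 by its brightest probe. The means of the other 7 genes ranged from -0.19 (ATP2B4) to 0.32 (N4BP2L2).

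Among all genes with 2 or more detected probes, 486 had 2 or more called probes. In 477 of these the called probes of a gene all went one way, and the remaining 9 are the genes described here. Genes with more detected probes have more chances to be among them. Called probes went both ways in 2 of 2124 genes with 2 detected probes, 4 of 465 with 3, 1 of 75 with 4 and 2 of 14 with 5 or more. Of 385 pairs of called probes that share an accession, 6 were opposite (1.56%), and of 236 pairs with different accessions, 6 were (2.54%). The difference between these shares was not tested. The gap between the highest and the lowest probe had a median of 0.21 over the 2678 genes, and the 9 genes ran from 1.11 (TRAK1) to 1.94 (UBE2G1), all above the 95th percentile of 1.02. Since a call in both directions needs a wide gap, this too describes the choice. By the RefSeq gene table, the 9 genes have between 1 and 39 curated coding transcripts, against a median of 3 over the 2677 of these genes found there.

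The threshold was the adjusted p of the weaker of the gene's best probe in each direction. Just inside it lay CUL4B (limma adjusted p = 0.0406) and TRAK1 (0.0400), and just outside lay PCLO (0.0531) and TRIP12 (0.0568). UBE2G1 (0.0079), TNPO1 (0.0080) and N4BP2L2 (0.0092) lay furthest inside. By size instead, as the lesser of a gene's highest change and the size of its lowest, the 5 highest of the other genes were IL1RAP (0.49), PLPP5 (0.48), TRIP12 (0.48), TGM2 (0.46) and ENPP1 (0.46). IL1RAP and PLPP5 ranked 9 and 10, ahead of DNAJB12 (0.48) at 11. The sizes of PLPP5 and DNAJB12 were nearly equal against the SEs of their probes (0.22 and 0.13), so their order is not resolved. Size alone therefore does not set the 9 genes apart. Apart from PLPP5, the 5 other genes each had 1 probe called and 1 not called, and PLPP5 had neither called. The place of IL1RAP rests on a probe that was detected on no mimic array, for which only a bound of at least 1.11-fold lower (0.16 on the log2 scale) can be given, so its size and rank are not measured.

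**Figure D3:**
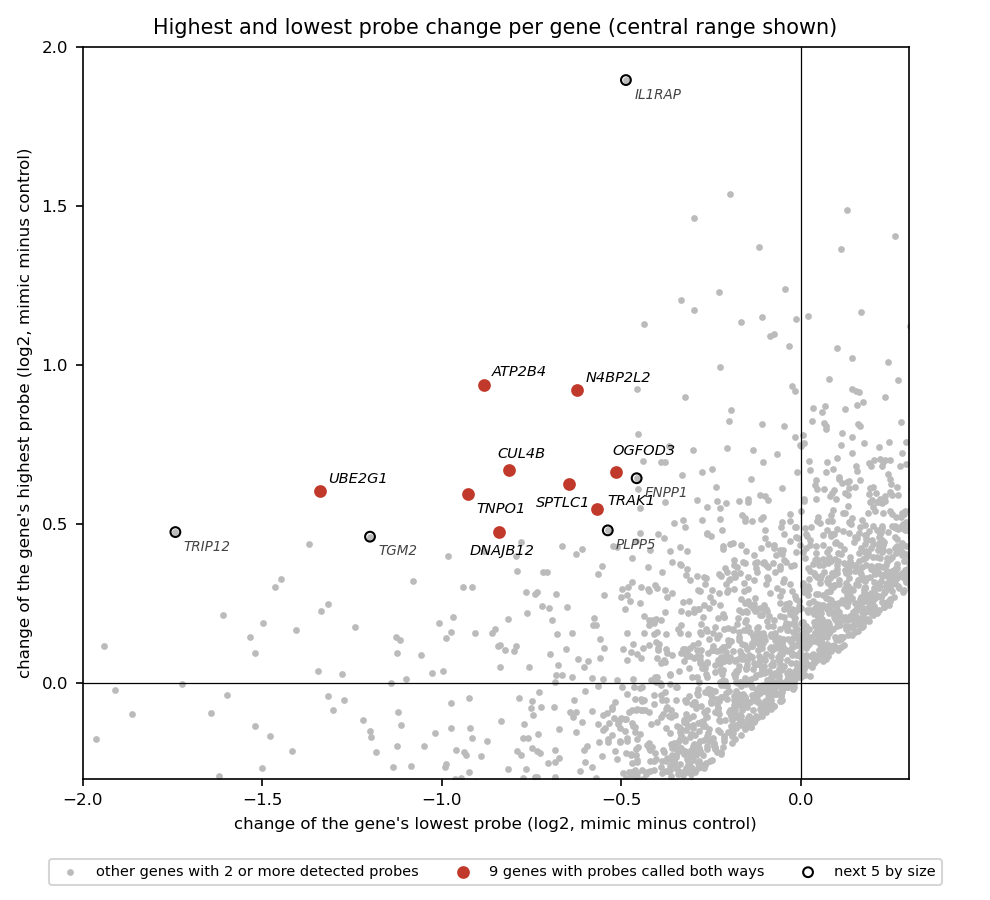
Change of the highest probe (y axis) against that of the lowest probe (x axis) of each gene with 2 or more detected probes, as log2 differences of mimic minus control; 804 of 2678 genes lie outside the plotted range. The 9 genes (red) sit in the upper left, with lowest probes from -1.34 to -0.51 and highest probes from 0.48 to 0.94, beside the 5 other genes highest by size (open circles), of which IL1RAP is placed by a probe detected on no mimic array.

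The direction of every called probe held under other processing, but the calls did not. None of the 21 called probes changed sign under any alternative that gave it a value. The groups of these probes did not overlap, so leaving out 1 array could hardly reverse a sign. The filters and the blocked fit left the differences themselves as they were. The kept signs therefore add little to the calls that chose the probes. UBE2G1, TNPO1 and N4BP2L2 had probes called both ways under all 17 alternatives, and ATP2B4 under 15. OGFOD3 kept its calls in both directions under 11, SPTLC1 under 10, DNAJB12 under 8, TRAK1 under 7 and CUL4B under 6. The calls in both directions ended for TRAK1 when any 1 array was left out, and for CUL4B when any array but mimic replicate 2 was. They ended for DNAJB12 without any control array or mimic replicate 1 or 2, for OGFOD3 without replicate 1 of either group, control 2 or mimic 3, and for SPTLC1 without replicate 2 of either group, control 3 or mimic 1. With the replicate number taken as a blocking term, CUL4B and DNAJB12 were no longer called both ways. With no background correction the differences were smaller. Those of UBE2G1 became 0.49 and -0.90, those of CUL4B 0.27 and -0.41, and the higher ATP2B4 probe 0.35.

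**Figure D4:**
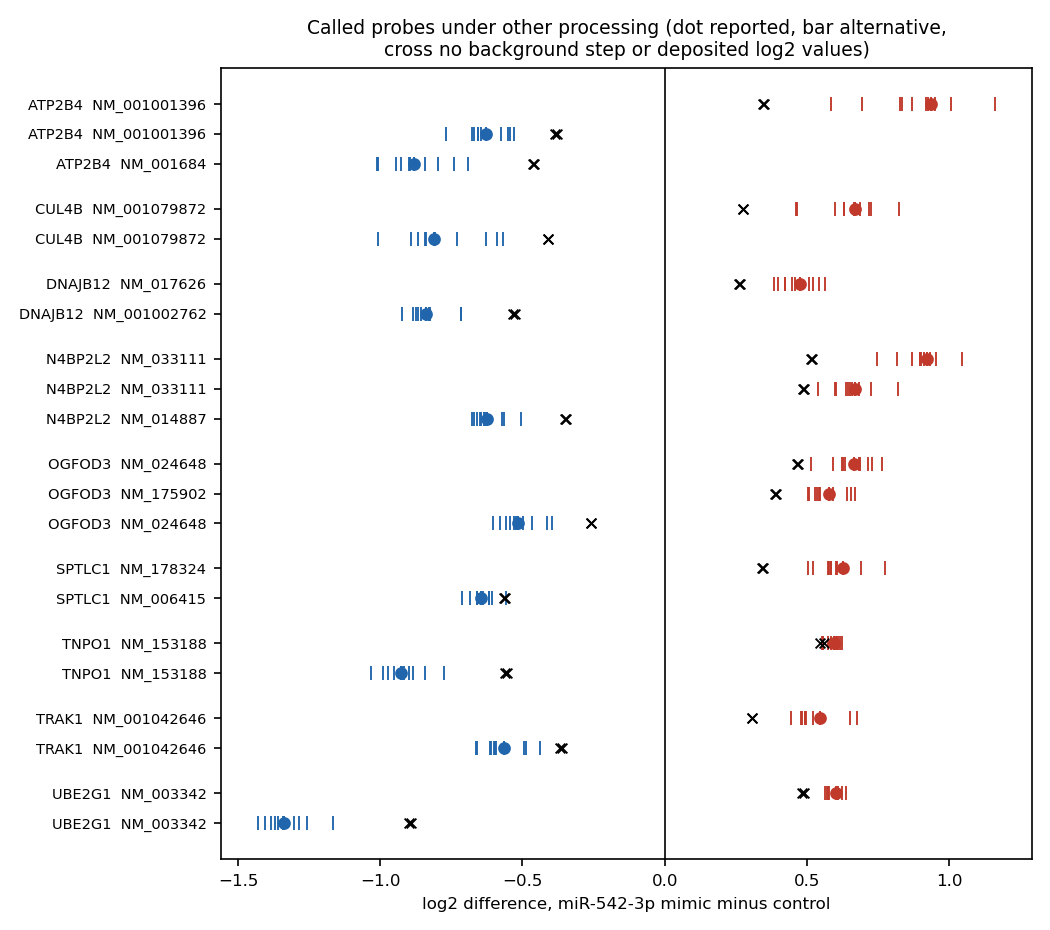
Log2 difference, miR-542-3p mimic minus control (x axis), of the 21 called probes of the 9 genes (y axis) as reported (dots), under other settings (bars) and with no background step or from the deposited log2 values (crosses). No mark crosses 0, and the crosses lie nearest to it for most probes.

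Partner and related genes of the 9 were examined next, from lists drawn up by function. They were not chosen by the rule, but the lists were drawn up with earlier results of these same arrays known. Their calls are therefore not independent tests. Each gene was read by its brightest detected probe, with p-values adjusted over all 18113 probes. Of 113 listed genes 91 were measured: 16 rose, 10 fell and 65 were not called. Their median difference was 0.07, against 0.02 over all 10734 genes. Over all genes 12.4% were called higher and 13.6% lower. A further 6 measured genes were not called by their brightest probe while another of their probes was called, higher in 3 and lower in 3. The higher ones were RHOT1 (0.81), P4HA2 (0.82) and OGFOD1, and the lower ones DCAF11 (-0.78), DNAJB2 and RAN. Another DCAF11 probe went the other way (0.44) and was not called. By their brightest probe, the closest relatives measured did not pass the test, apart from UBE2G2: CUL4A gave 0.07, TNPO2 0.10, TRAK2 0.08, ATP2B1 0.10, DNAJB14 0.31, N4BP2 0.12 and OGFOD1 0.23. The ATP2B1 probe was dim, detected on 1 control and 2 mimic arrays, so little can be read from its difference. The second OGFOD1 probe was called higher (0.44, limma adjusted p = 0.0414). SPTLC2 and OGFOD2 were not detected.

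In the calcium pump list, 2 of 5 measured genes rose and 1 fell. BSG, basigin, an accessory subunit of plasma membrane calcium pumps, fell by 1.67 ± 0.16 (SE, limma adjusted p = 3.8e-04), from 10.81 ± 0.09 to 9.15 ± 0.27 (SD, n = 3). NPTN, neuroplastin, which fills the same subunit role, rose by 0.66 ± 0.12 (limma adjusted p = 0.0054), and its second probe was called higher as well (0.54). ATP2C1, the calcium and manganese pump of the Golgi, rose by 0.74 ± 0.13 (limma adjusted p = 0.0043). Another of its probes was called higher as well (0.68), while a further one was not called (0.22).

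Of 24 measured genes of the CUL4 ligase, 4 rose and 4 fell, with a median of 0.07. DDB2, a substrate receptor for damaged DNA, rose by 1.34 ± 0.12 (SE, limma adjusted p = 3.3e-04), and DCAF17 rose by 1.28 ± 0.16 (limma adjusted p = 0.0011). DTL, the receptor that targets the replication factor CDT1, fell by 0.80 ± 0.17 (limma adjusted p = 0.0117). Without background correction the differences of DCAF17 and DTL were 0.66 and -0.48. The other 5 calls, named after their values were seen, were rises of CRBN and DCAF6 and falls of CAND1, DCAF7 and DCAF8. All 5 ended when 1 of several arrays was left out, that of CRBN also in the blocked fit, and their highest limma adjusted p over the alternatives lay between 0.0675 for CAND1 and 0.130 for DCAF6. Without background correction CAND1 and DCAF8 were at -0.38 and -0.56. The core subunits DDB1 (0.32) and RBX1 (0.09) did not pass.

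For UBE2G1, 1 of 7 measured related genes fell and none rose. UBE2G2, an E2 enzyme of endoplasmic reticulum degradation, fell by 0.49 ± 0.15 (SE, limma adjusted p = 0.0408), but its call was lost in the blocked fit and on leaving out any 1 array except mimic replicate 2, with limma adjusted p-values up to 0.119. In the DNAJB12 list, STUB1, a ubiquitin ligase that acts with Hsp70, was the only one of 9 that rose (0.66 ± 0.13, limma adjusted p = 0.0081), and none fell. Its other probe gave 0.24 and was not called. DNAJB2, a J-domain protein, was not called by its brightest probe (-0.44, limma adjusted p = 0.0506), but its other probe was called lower (-0.67, limma adjusted p = 0.0163).

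Of 17 nuclear import genes, 2 rose and 2 fell. KPNA3, an importin alpha, fell by 1.49 ± 0.18 (SE, limma adjusted p = 0.0011), while IPO11 rose by 1.01 ± 0.20 (0.0080) and KPNA1, another importin alpha, rose by 0.55 ± 0.12 (0.0125). Without background correction the KPNA3 difference was -0.81. RAN, the GTPase that sets the direction of import, was not called by its brightest probe (-0.41, limma adjusted p = 0.0672), while its other probe was called lower (-1.36 ± 0.16, limma adjusted p = 8.8e-04). The second fall was that of TNPO3, an import receptor for splicing factors (-0.53), named after its value was seen, whose call was lost on leaving out replicate 1 of either group, control 2 or mimic 3. Of 12 genes of mitochondrial transport, 4 rose and 1 fell, with a median of 0.26. MYO19, a myosin of mitochondria, rose by 1.37 ± 0.14 (limma adjusted p = 5.5e-04), as did its 2 dimmer probes (0.77 and 1.04). KIF5C, a kinesin-1 heavy chain, rose by 0.93 ± 0.14 (0.0023), and by 0.41 without background correction. MFN2, a mitochondrial fusion protein that binds the TRAK1 partner Miro, fell by 1.56 ± 0.16 (4.2e-04). The other rises, named after their values were seen, were KIF5B (0.70) and KLC1 (0.56), also of kinesin-1, and that of KLC1 ended without control replicate 1.

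In sphingolipid synthesis, 2 of 8 measured genes rose and none fell. CERS5, a ceramide synthase, rose by 0.97 ± 0.15 (SE, limma adjusted p = 0.0028). ORMDL1, an inhibitor of serine palmitoyltransferase, rose by 0.47 ± 0.15 (0.0493), and its call was lost in the blocked fit and on leaving out any 1 array except control replicate 2. Of 7 measured 2-oxoglutarate oxygenases, P4HTM, a prolyl hydroxylase of the endoplasmic reticulum, rose by 0.76 ± 0.12 (limma adjusted p = 0.0034) and RIOX1, a ribosomal oxygenase, fell by 0.58 ± 0.12 (0.0116). Neither of the 2 measured genes listed for N4BP2L2, N4BP2 and GFI1, passed.

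**Figure D5:**
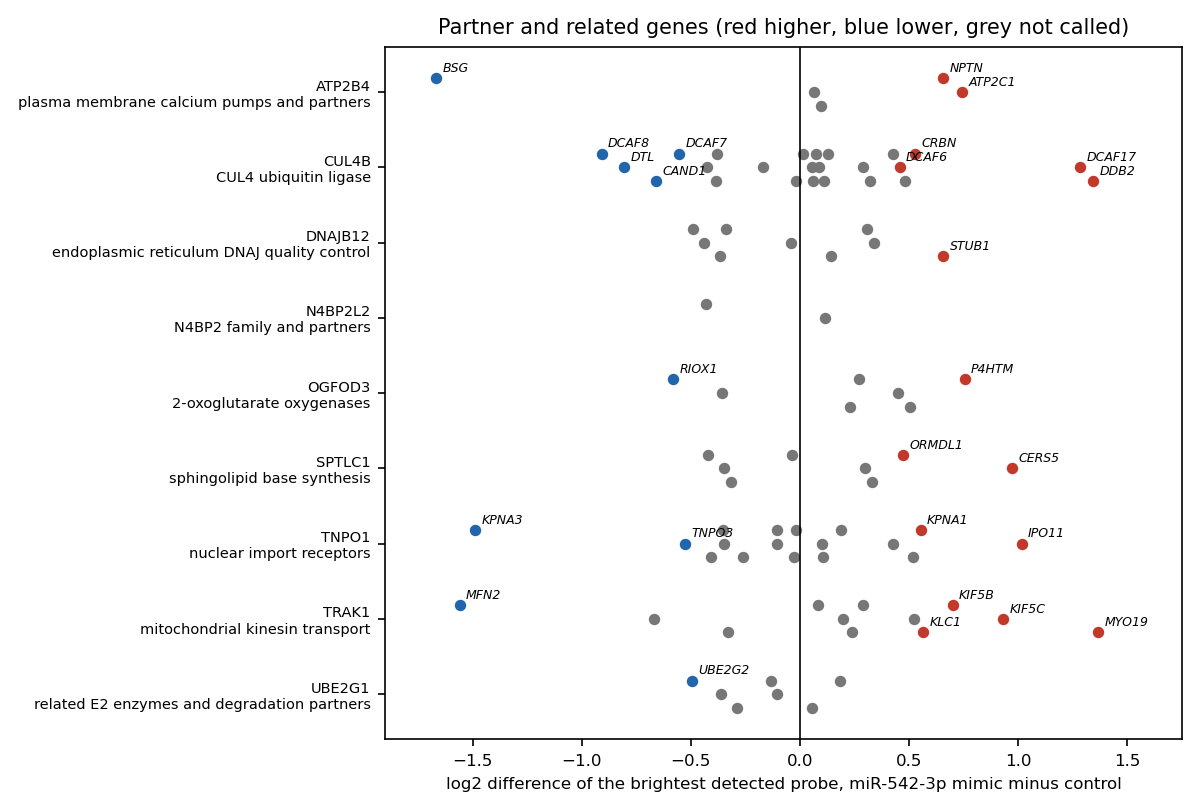
Log2 difference, miR-542-3p mimic minus control (x axis), of the brightest detected probe of 91 partner and related genes, in 9 lists named by the gene they belong to (y axis; vertical offsets within a list only separate the points). Named red points (16) were called higher and named blue points (10) lower by limma, and grey points were not called.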

How the data were processed

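Per the file headers, the authors deposited non-normalized signal intensities of 47323 probes on 6 arrays, each with a detection p-value. A second deposited table of the authors holds log2 values, whose columns share nearly 1 distribution. No source used here names the scanner software. Per the labels' protocols, biotin-labelled cRNA of column-purified, DNase-treated RNA was used.

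The background step was nec (limma 3.58.1, R 4.3.3; offset 16, negative controls inferred from the detection p-values), followed by quantile normalization and log2. Probes detected at p under 0.05 on at least 3 of 6 arrays were kept (18113). Groups were compared per probe with lmFit and eBayes, without covariates, and Benjamini-Hochberg adjustment over all kept probes. The fit was run on simulated data whose planted changes were larger than any reported here. This does not show how well changes of the reported size are found. Genes came from GEO's annotation of the array (30113 probes with 1 gene, 8 with several, 17202 with none listed here), and transcript counts from a RefSeq table of GRCh38.p14. Probe sequences were not used here. The number of arrays limits the precision.

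The 9 genes and the lists were chosen with earlier results of these data known. Named were all 9 genes, the 5 nearest by size, up to 3 called partners per list and the closest relatives. Alternatives were other background steps, normalizations, filters, variance models, array weights, a stricter threshold, a block for the replicate number, each array left out, and the deposited values.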

Additional observations from a re-analysis of the deposited data

How the results depend on the processing

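The count of genes with probes called both ways, 9 as reported, depended on the setting. It was 18 with no background correction and 18 with the deposited log2 values, 17 with eBayes with trend and robust, 22 with array weights, 5 with no filter on dim probes and 3 at an adjusted p under 0.01. With 1 array left out it ranged from 4 to 11, with 4 to 6 of the 9 genes among them. The partner genes that fell, 10 as reported, numbered 17 with no background correction and with the deposited values, 16 with an offset of 50, with detection on all 6 arrays and with trend and robust, 18 with array weights and 3 at an adjusted p under 0.01, and 6 to 13 with 1 array left out. Those that rose, 16 as reported, ranged from 11 to 24 over the alternatives, 24 being found with no background correction, the deposited values and trend and robust. Only 33 partner genes, the called ones and the closest relatives, were followed singly: of their 557 results under an alternative, 495 kept their call or lack of one, 62 lost a call and no call reversed, while ATP2B1, N4BP2 and TRAK2, not called, changed sign. Other partner genes gained calls, as the counts show. With the replicate number as a block, 8 genes had probes called both ways, 7 of them among the 9 (CUL4B and DNAJB12 were lost), and 17 partner genes rose and 10 fell. Same-numbered arrays deviated together only weakly (correlations of 0.02 to 0.10), none above the 0.1 required, so the numbers were not taken to pair the arrays, although control replicates 2 and 3 correlated best with their own number and control replicate 1 did not. For most called probes of the 9 genes the differences were smallest without the background step or with the deposited values. Whether this depended on how dim a probe was, was not tested.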

Other observations

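Beyond the 9 genes, 24 others had probes called both ways under at least 1 alternative. Most frequent were CCNY, DUT and TRIP12, each under 6 of 17 alternatives, named after this was seen. CCNY, a membrane-bound cyclin, had probes at 0.39 ± 0.13 and -0.47 ± 0.13 (SE), both with NM_145012, and only the lower one was called. DUT, the enzyme that clears dUTP, had 3 probes at 0.61 ± 0.23, -0.45 ± 0.17 and -0.28 ± 0.16, none called, the first and second sharing NM_001025248. TRIP12, a ubiquitin ligase, had its RefSeq probe (NM_004238) at 0.48 ± 0.15, not called, and a probe annotated to the cDNA record AK128481 at -1.74 ± 0.24, called lower.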
